A study of Mus musculus with 4 samples.

Results

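The 5 genes described here are Tlr2, Tlr4, Tlr7, Ticam1 and Irak1, which are 3 Toll-like receptors and 2 of the proteins that carry their signals, out of the 397 genes of a targeted immune panel. They were read in single cells dissociated from the right hemisphere of the brain, after removal of the cerebellum and the olfactory bulb, of 4 male mice aged 9 months. All mice carried the 5XFAD transgene, which drives amyloid deposition in the brain, and the study's methods state that all were heterozygous for an SJL-derived Trem2 variant. Of these, 2 mice lacked the Abi3 locus (Abi3-/-) and 2 had it intact (Abi3+/+), with 1 library per mouse, and Abi3 itself was not among the genes in the tables. The animals were separate mice, so n is the number of mice throughout. Cells with 40 or more genes and without an excess of reads were used, which were 13820 of 21172 cells, and the deepest of them held 59271 reads. They were sorted into classes by the reads of marker genes that include none of the 5 genes. Microglia were cells with a Trem2 read and fewer than 3 markers of another class (13081 cells), and the others were 74 macrophages or monocytes, 117 neutrophils, 307 T cells and 53 B cells, while 188 cells had no class.

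Toll-like receptors recognize conserved microbial molecules and molecules released by damaged cells. TLR2 pairs with TLR1 or TLR6 at the cell surface, TLR4 binds lipopolysaccharide with the help of MD-2 (Ly96) and CD14, and TLR7 senses single-stranded RNA inside endosomes. Most receptors signal through MyD88 and the kinase IRAK1 toward NF-kB, whereas TRIF, the product of Ticam1, carries the signals of TLR3 and of internalized TLR4 toward interferon and NF-kB. In the brain these receptors are known mainly from microglia, the resident macrophages, and Apoe and Cst7 are genes that microglia express at higher levels around amyloid plaques.

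In RefSeq positions on GRCm38.p6, which is the mm10 build named in the submitters' processing notes, Tlr2 lies at chr3:83836272-83841824, Tlr4 at chr4:66827551-66846581, Ticam1 at chr17:56269462-56276767, Irak1 at chrX:74013914-74023921 and Tlr7 at chrX:167303380-167330574. The RefSeq promoter table held 3 of the 5 genes. The promoter stretches of Tlr2 and Ticam1 are shown because these 2 genes moved in opposite directions between the microglial states compared here. Both are on the minus strand and are given 5′ to 3′, at chr3:83841825-83841858 (34 bases) and chr17:56276787-56277017 (231 bases). The Tlr2 stretch stops at the RefSeq gene and the Ticam1 stretch stops where the first GENCODE transcript starts by its sequence, which lies upstream of the RefSeq gene. In Ticam1 the capitals mark a match to GAGGAA, the core letters bound by the myeloid factor PU.1.
Tlr2: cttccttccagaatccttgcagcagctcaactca
Ticam1: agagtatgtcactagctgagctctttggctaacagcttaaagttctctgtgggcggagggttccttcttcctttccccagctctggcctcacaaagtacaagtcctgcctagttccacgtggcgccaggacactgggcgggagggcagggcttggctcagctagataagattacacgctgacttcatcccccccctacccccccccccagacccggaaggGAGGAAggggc
GAGGAA and the NF-kB letters GGGANNNNCC were searched on both strands. Among 32851 promoters, 21.4% held GAGGAA and 16.2% held GGGANNNNCC in the first 231 bases, and Ticam1 held only the former. The Tlr2 stretch held neither in its 34 bases, where 3.15% and 1.76% of promoters hold them. A match of letters describes the sequence and does not show that a factor binds there.

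The values are reads and not molecules. The kept cells held 61058416 and 102612276 reads for Abi3-/- mice 1 and 2, and 82557555 and 78817636 for Abi3+/+ mice 1 and 2, with medians of 19647.5 to 24283 reads per cell. The genes used to check the classes separated them unevenly. C1qa had a read in at least 99.6% of the microglia and Cx3cr1 in 76.2% to 94.4%, while Cx3cr1 had one in 0 to 4.41% of the T cells. Other microglial check genes were read outside microglia, Selplg in 82.4% to 94.1% of T cells and Ly86 in 91.7% to 100% of macrophages and 61.5% to 75% of B cells. Mbp, the oligodendrocyte check gene, had a read in 54.4% to 68.4% of T cells and 17.4% to 21.7% of microglia. The macrophage gate was the least certain, since 48 of its 74 cells met it with exactly 3 markers and Trem2 had a read in 37.5% to 64.3% of them. The library of Abi3-/- mouse 2 stood apart in holding 87 of the 117 neutrophils, and reads of neutrophil markers occurred in 6.94% of its microglia, the highest share of the 4 libraries, in which the lowest was 0.915%. Pairs of libraries shared 17 to 42 cell labels, and none of these pairs of cells had identical reads.

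Tlr2 and Tlr7 were read in most microglia, Ticam1 and Tlr4 in a minority, and Irak1 in few. The share of microglia with a Tlr2 read was 61.3% and 62.8% for the Abi3-/- mice, and 56.5% and 61.2% for the Abi3+/+ mice. Tlr7 had a read in 65.9% and 66.5% and in 67.4% and 70.3%, respectively. These receptors were thus found in similar shares of the microglia of all 4 brains. Ticam1, the TRIF adaptor, had a read in 29.1% and 29.2% of Abi3-/- microglia and in 26.7% and 26.6% of Abi3+/+ microglia. Tlr4 had a read in 13.7% and 13.2% and in 16.9% and 13.9%, respectively. T cells, in which these receptors are not prominent, are given for comparison. At 15117 to 17450 median reads per T cell, against 19791 to 24732.5 per microglial cell, Tlr2 had a read in 0 to 4.41% of T cells, Tlr7 in 0 to 4.41% and Tlr4 in 0 to 1.47%, all below the lowest microglial share. The shares tell how often each gene was read and are not taken as levels of one gene against another, because the panel reads each gene with its own primers.

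Irak1 behaved unlike the other members in how many reads a positive cell held. In microglia with at least 1 read of the gene, the median was 79, 72, 72 and 92 reads for Tlr2 in Abi3-/- mice 1 and 2 and Abi3+/+ mice 1 and 2. The medians were 49, 42, 52 and 63 reads for Tlr4, 77, 64, 75 and 92 for Tlr7 and 57, 50, 59 and 70 for Ticam1. For Irak1 they were 5, 5, 4 and 6 reads. For each of the first 4 genes the highest median was in Abi3+/+ mouse 2 and the lowest, tied for Tlr2, in Abi3-/- mouse 2. The lowest read number of a positive cell was 9 to 12 for these 4 genes in every library, as for most of the panel, in which the median gene's lowest number was 9 to 12. For Irak1 it was 2 or 3. The deposited reads had passed an error correction, and whether it treated Irak1 otherwise could not be told from the tables, so a cell with an Irak1 read may not mean the same as one with a read of another member. Of 210 genes read in at least 20 microglia in all 4 libraries, 5 had a lowest number under 7 in all of them and 7 in some. Between 84.0% and 91.3% of Irak1-positive microglia held fewer than 10 reads, so that a limit of 10 reads per positive cell left Irak1 in 0.133% to 1.19% of microglia. The same limit left the share of Tlr2 as it was in every library, and the share of Tlr7 went from 66.5% to 66.0% in Abi3-/- mouse 2 and stayed as it was in the other 3.

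**Figure D1:**
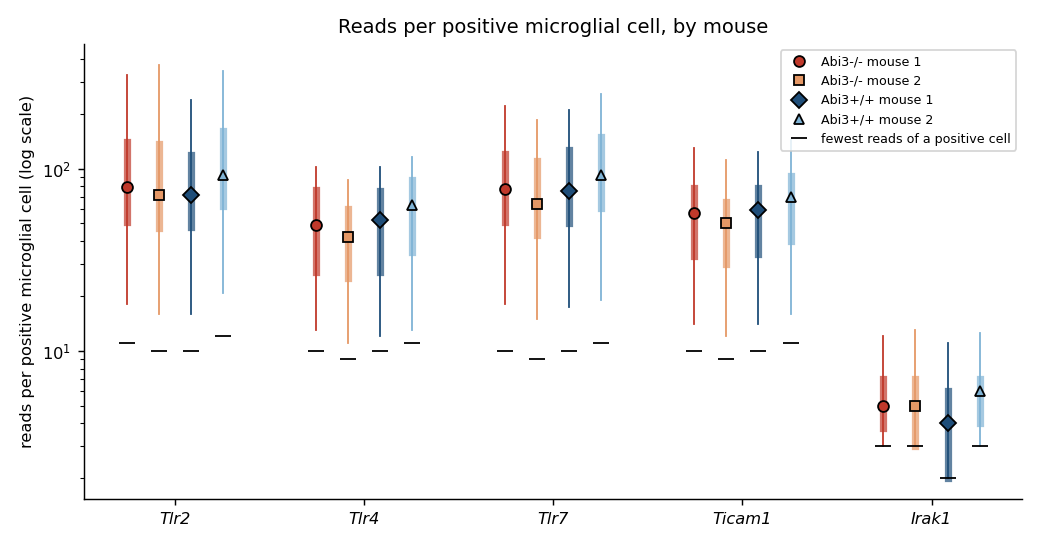
Reads per positive microglial cell on a log axis for each gene and mouse, where the symbol is the median, the thick bar runs from the 25th to the 75th percentile, the thin bar from the 5th to the 95th, and the dash is the fewest reads of any positive cell. Medians lie between 42 and 92 reads for Tlr2, Tlr4, Tlr7 and Ticam1 and between 4 and 6 reads for Irak1.

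Irak1 was also the member with the widest spread between mice. The share of microglia with an Irak1 read was 10.2% and 6.61% for the Abi3-/- mice, and 11.9% and 0.833% for the Abi3+/+ mice. The last value rests on 25 positive cells of 3001. The 2 Abi3+/+ mice thus lay on either side of the Abi3-/- mice, and the genotypes overlapped. T cells had an Irak1 read in 1.32% to 7.35% of cells, a range that overlaps that of microglia, so the Irak1 share in microglia could not be told apart from the level in T cells.

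Microglia were next divided by reads of Apoe and Cst7 to ask whether the Toll-like receptor genes differ between microglial states. There were 5796 microglia with neither gene (Apoe-Cst7-), 2790 with Apoe alone, 1131 with Cst7 alone and 3364 with both (Apoe+Cst7+). The state with both genes carried other genes of plaque-associated microglia that the division did not use: the integrin Itgax had a read in 44.3% to 66.4% of Apoe+Cst7+ cells and in 7.17% to 18.6% of Apoe-Cst7- cells. Apoe+Cst7+ cells were also deeper, with medians of 27647.5 to 31908 reads against 17000.5 to 20988, so the differences in share are given again after cells were thinned to 10000 reads, which left out shallower cells and kept 12644 of the 13081 microglia.

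Tlr2 rose and Tlr4, Tlr7 and Ticam1 fell in Apoe+Cst7+ microglia when reads were summed per mouse and state and normalized by TMM. The background of this comparison is high, since 47.1% of the 297 genes tested passed the threshold, 24.2% of them as higher and 22.9% as lower, and 4 of the 5 members passed it. Nothing is read from the count of members against so high a background, and the members are described by their own values.

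Tlr2 had a read in 66.5% and 70.9% of the Apoe+Cst7+ cells of the Abi3-/- mice, against 56.0% and 57.0% of their Apoe-Cst7- cells. In the Abi3+/+ mice it had a read in 59.3% and 63.7%, against 54.9% and 58.8%. The share was higher in Apoe+Cst7+ cells in 4 of 4 mice, by 8.45 ± 4.6 percentage points (SD, n = 4), and by 8.39 ± 4.88 points after thinning. Its TMM-normalized level went from 2157 and 2609 to 3439 and 4783 CPM (reads scaled to a common total) with Abi3 lost, and from 2123 and 2714 to 3449 and 3810 CPM with Abi3 intact, so no Apoe+Cst7+ value overlapped an Apoe-Cst7- value. The log2 fold change was 0.69 (SE 0.10, edgeR quasi-likelihood test, Benjamini-Hochberg adjusted p = 9.15e-05). The median reads per Tlr2-positive cell were 85 to 104.5 in Apoe+Cst7+ cells and 64 to 87 in the shallower Apoe-Cst7- cells. After thinning the direction turned in 4 of 4 mice, with medians of 29.5 to 35 reads in Apoe+Cst7+ cells and 34 to 42 in Apoe-Cst7- cells. Thinning gives all cells the same total, as scaling by library size does. The thinned medians of Tlr4, Tlr7 and Ticam1 were also lower in Apoe+Cst7+ cells of each mouse, for Tlr7 in Abi3-/- mouse 1 at 26 against 35 reads. The thinned medians therefore do not decide whether the level per Tlr2-positive cell differed.

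Tlr4 had a read in 13% and 9.41% of the Apoe+Cst7+ cells of the Abi3-/- mice, against 11.2% and 16.1% of their Apoe-Cst7- cells. In the Abi3+/+ mice it had a read in 8.07% and 8.09%, against 18.2% and 16.2%. The share was lower in Apoe+Cst7+ cells in 3 mice and higher in Abi3-/- mouse 1, and after thinning the difference ran from -10.5 to 1.82 percentage points. The log2 fold change was -0.81 (SE 0.21, edgeR adjusted p = 0.0078), and it was -0.76 without Abi3-/- mouse 2, which ended the call (edgeR adjusted p = 0.064).

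Tlr7 had a read in 65.2% and 64.0% of the Apoe+Cst7+ cells of the Abi3-/- mice, against 61.8% and 68.4% of their Apoe-Cst7- cells. In the Abi3+/+ mice it had a read in 59.2% and 59.9%, against 71.0% and 74.5%. The fall was plain in the Abi3+/+ mice, small in Abi3-/- mouse 2, and turned around in Abi3-/- mouse 1, where the share was higher in Apoe+Cst7+ cells. After thinning the difference ran from -15.0 to 3.34 percentage points. The log2 fold change of -0.22 (SE 0.08, edgeR adjusted p = 0.039) lost its call in 6 of 16 alternatives, among them DESeq2 (adjusted p = 0.099) and the fits without Abi3-/- mouse 2, Abi3+/+ mouse 1 or Abi3+/+ mouse 2 (edgeR adjusted p = 0.0962, 0.0929 and 0.109).

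Ticam1 had a read in 26.2% and 27.4% of the Apoe+Cst7+ cells of the Abi3-/- mice, against 32.2% and 30.7% of their Apoe-Cst7- cells. In the Abi3+/+ mice it had a read in 24.1% and 18.8%, against 27.5% and 29.3%. The share was lower in Apoe+Cst7+ cells in 4 of 4 mice, by 3.28 to 10.6 percentage points, and the difference ran from -10.8 to -3.34 points after thinning. The log2 fold change was -0.39 (SE 0.12, edgeR adjusted p = 0.016), and the call was lost without Abi3-/- mouse 1 (edgeR adjusted p = 0.054) and without Abi3+/+ mouse 2 (edgeR adjusted p = 0.088). Irak1 had a log2 fold change of -0.70 (SE 0.64, edgeR adjusted p = 0.387) and did not pass the threshold.

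The size of these changes, and the call of Tlr2, depend on what the reads are scaled to, while the sign over all mice stayed for Tlr2, Tlr4, Tlr7 and Ticam1. For single mice it did not, since Tlr2 scaled by library size was at -0.021 and -0.030 on the log2 scale in the Abi3+/+ mice. Both values lie above the median of all genes over the 4 mice under that scaling (-0.60), so no fall of Tlr2 is read from them. A few genes took a larger share of the reads in Apoe+Cst7+ cells, and their part in the shift was not tested. Ctsd, a lysosomal protease, took 27.1% to 38.7% of the reads of Apoe+Cst7+ cells and 19.1% to 25.9% of those of Apoe-Cst7- cells. Scaling by library size alone moved the median of all 297 genes from -0.04 to -0.60 on the log2 scale, and the called genes went from 72 higher and 68 lower to 44 higher of 169. Tlr2 was then 0.12 with an edgeR adjusted p of 0.313, and Tlr4, Tlr7 and Ticam1 were -1.37, -0.79 and -0.97. Relative to the median gene, Tlr2 stood 0.73 higher under TMM and 0.72 higher under library size, and Ticam1 stood at -0.35 and -0.37, as the change of scaling shifts all genes nearly alike. A quantity free of scaling is the ratio of the reads of 2 members in the same cells. Tlr2 reads per Tlr7 read went from 0.929 and 0.973 in the Apoe-Cst7- cells of the Abi3-/- mice to 1.44 and 1.97 in their Apoe+Cst7+ cells. In the Abi3+/+ mice they went from 0.733 and 0.827 to 1.41 and 1.69. The ratio rose in 4 of 4 mice, by 0.90 ± 0.19 on the log2 scale (SD, n = 4), and the ratio to Ticam1 rose by 1.09 ± 0.23. A ratio cannot tell a rise of Tlr2 from a fall of Tlr7 or Ticam1. Under library size scaling the falls of Tlr7 and Ticam1 given above were larger than the change of Tlr2.

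**Figure D2:**
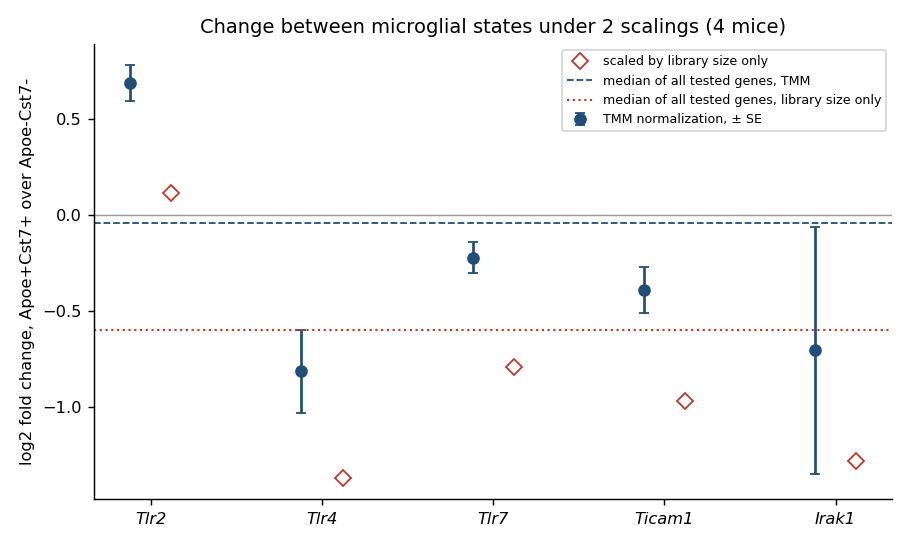
Log2 fold change of the 5 genes between Apoe+Cst7+ and Apoe-Cst7- microglia over 4 mice, as TMM-normalized values with standard errors (circles) and scaled by library size alone (diamonds), with the median of all 297 tested genes under each scaling as a horizontal line. Tlr2 lies above the median gene and Tlr4, Tlr7, Ticam1 and Irak1 lie below it under either scaling.

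Reads of Apoe or Cst7 alone went with smaller changes. In microglia with Apoe alone, 17 of 297 genes passed the threshold (5.72%) 5.39% as higher and 0.337% as lower, and no member did, with 68 genes at an unadjusted edgeR p under 0.05. The log2 fold changes of the members lay between -0.36 (Irak1) and 0.14 (Tlr2, SE 0.09, edgeR adjusted p = 0.37). In microglia with Cst7 alone, 23 genes passed it (7.74%, with 7.07% higher and 0.673% lower), and Tlr2 was the only member among them, with a log2 fold change of 0.52 (SE 0.10, edgeR adjusted p = 0.0051). Tlr2 lost that call in 5 of 16 alternatives, without Abi3-/- mouse 1 (edgeR adjusted p = 0.067), Abi3-/- mouse 2 (0.083) or Abi3+/+ mouse 2 (0.060) among them. Scaling by library size moved the median of all genes to -0.22 here and the calls to 16 higher of 43, with Tlr2 at 0.32 (edgeR adjusted p = 0.038) and Ticam1, called under this scaling, at -0.37 (edgeR adjusted p = 0.038). In order of the mean share of cells with a read over mice, Tlr2 went from 56.7% ± 1.62 with neither gene through 60.3% ± 3.29 with Apoe alone and 62.6% ± 2.65 with Cst7 alone to 65.1% ± 4.88 with both (SD, n = 4). The ranges of neighbors in this order overlapped, while no mouse's share with both genes was as low as any mouse's share with neither. The order of Tlr7 ran the other way, from 68.9% ± 5.39 with neither to 62.1% ± 3.0 with both (SD, n = 4), and its ranges overlapped between these states.

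Small groups of microglia that carry other programs also held these genes. Tlr2 had a read in 63.3% to 79.4% of the 241 microglia with reads of the 3 MHC class II genes tested and in 62.5% to 78.9% of the 84 cycling microglia. For Tlr7 the ranges were 62.5% to 73.5% and 58.8% to 70%, and for Tlr4 15.1% to 20.8% and 12.5% to 26.3%. The cycling group had as few as 8 cells in a mouse, and these groups were not tested.

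Receptors were found together in the same cell in a large share of microglia. Of Tlr2, Tlr4 and Tlr7, all 3 had a read in 6.40% to 7.08% of microglia and none had one in 11.4% to 13.4%. Tlr2 had a read in 58.0% to 66.2% of Tlr7-positive microglia and in 53.3% to 58.4% of Tlr7-negative ones, and in each of the 4 libraries the share was higher in the positive cells. After thinning to 10000 reads it was 58.7% to 66.8% and 55.1% to 58.4%. Cells of a library are not replicates, and these shares are descriptions.

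Among the other immune cells of the brain, Tlr2 was read in macrophages and neutrophils of every mouse and in few T or B cells, and no Ticam1 read was found in the neutrophils within the cell limits. The ranges over mice are compared below with those of all microglia, and the reads were tested by class against microglia over 333 genes. TMM left the median gene at -0.69 in macrophages, -3.04 in neutrophils, -0.03 in T cells and -3.05 in B cells, and scaling by library size put it at -0.43, -3.48, 0.24 and -2.35. All 4 classes keep some reads of microglial genes, and the part of stray reads in the low values was not tested.

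Macrophages or monocytes had a Tlr2 read in 33.3% to 50% of cells and a Tlr7 read in 28.1% to 41.7%, below the microglial range in each mouse although they were deeper, with medians of 33363 to 45218 reads. Ticam1 was in 6.25% to 34.4% of them, Tlr4 in 0 to 16.7% and Irak1 in 0 to 25%. In this class 43 of 333 genes passed the threshold (12.9%, with 8.71% higher and 4.2% lower) and no member did, with 85 genes at an unadjusted edgeR p under 0.05, 90 called by DESeq2 and log2 fold changes from -2.34 (Tlr4, SE 2.71) to -1.31 (Irak1, SE 1.81). limma on mean log-normalized expression called Tlr2 (-0.88 on a natural-log scale, adjusted p = 4.13e-04) and Tlr7 (-1.24, adjusted p = 3.27e-06) lower. The class held 12 to 32 cells per mouse.

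Neutrophils had a Tlr2 read in 20% and 54.0% of cells with Abi3 lost and in 33.3% and 26.3% with Abi3 intact. The value of 54.0% comes from the 87 cells of Abi3-/- mouse 2 (exact binomial 95% interval 43.0% to 64.8%), and the other 3 mice together had 8 positive cells of 30 (26.7%, 12.3% to 45.9%). These intervals cover counting error alone. Tlr7 had a read in 0 to 16.7% of neutrophils and Tlr4 in 0 to 20%. Ticam1 had a read in 0 of 117 neutrophils. With 3 cells over all 4 mice taken as the floor for a count of 0, the share is 2.56%. That floor is 10.9-fold below the share of all microglia, which was 27.9%. The exact binomial upper limit given below is higher than this floor, and 87 of the 117 cells came from Abi3-/- mouse 2, so the fold may be smaller. Ticam1 was the member that passed the threshold (edgeR adjusted p = 6.91e-04), in a class where 108 of 333 genes passed it (32.4%, with 9.91% higher and 22.5% lower). Some neutrophils outside the cell limits held Ticam1 reads. With no cell filter 9 of 232 neutrophils had a read, of which 1 had fewer than 40 genes and the others lay above the upper limit on reads. The log2 fold change was then -2.40, beside a median gene of -2.38, and the call was lost (edgeR adjusted p = 0.101), while within the cell limits it was kept without each mouse in turn. In the 3 mice other than Abi3-/- mouse 2, Ticam1 had a read in 0 of 30 neutrophils, for which the exact binomial upper limit is 11.6%, against 3.10% for the 117. Tlr7 had a log2 fold change of -4.36 (SE 2.06, edgeR adjusted p = 0.106) and was called lower by DESeq2 (adjusted p = 0.0227), by limma and after thinning, and Tlr2 had one of -1.19 (SE 1.39) and was called lower by limma.

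T cells had few reads of the receptors, and the share with Ticam1 was below that of microglia. Ticam1 had a read in 6.32% to 10.3% of T cells beside the shares of the other members given above. Of 333 genes 164 passed the threshold in T cells (49.2%, with 25.5% higher and 23.7% lower). Tlr2 was lower with a log2 fold change of -5.01 (SE 1.59, edgeR adjusted p = 0.018) and Tlr7 with -5.72 (SE 2.12, edgeR adjusted p = 0.034). Ticam1 had a log2 fold change of -1.40 (SE 0.99, edgeR adjusted p = 0.266) and was called lower by limma on mean log-normalized expression (adjusted p = 0.0089). Tlr4 had 1 positive cell of 307 and a log2 fold change of -8.29 (SE 3.55, edgeR adjusted p = 0.063), and it was called lower in 5 of 14 alternatives, among them DESeq2 (adjusted p = 0.0013) and the fit without Abi3+/+ mouse 1 (edgeR adjusted p = 0.0247). The Tlr2 call was lost without Abi3-/- mouse 1 or 2 (edgeR adjusted p = 0.054 and 0.079), and the Tlr7 call was lost without each mouse in turn (up to 0.099).

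B cells had a Tlr2 read in 0 to 5% of cells, a Tlr7 read in 0 to 7.69% and a Ticam1 read in 7.69% to 33.3%. With 3 to 26 cells per mouse, single cells set these values, and the Tlr4 share of 33.3% in Abi3+/+ mouse 1 is 1 cell of 3. In this class 133 of 333 genes passed the threshold (39.9%, with 14.1% higher and 25.8% lower). Tlr2 had a log2 fold change of -5.72 (SE 1.68, edgeR adjusted p = 0.014) and Tlr7 of -6.52 (SE 2.24, edgeR adjusted p = 0.028). Neither call held in the profiles of 10 or more cells alone (edgeR adjusted p = 0.0613 and 0.128). The Tlr2 call was also lost without Abi3-/- mouse 1 or 2 (edgeR adjusted p = 0.0504 and 0.0734), and the Tlr7 call without Abi3-/- mouse 2 or Abi3+/+ mouse 1 (edgeR adjusted p = 0.114 and 0.0773).

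**Figure D3:**
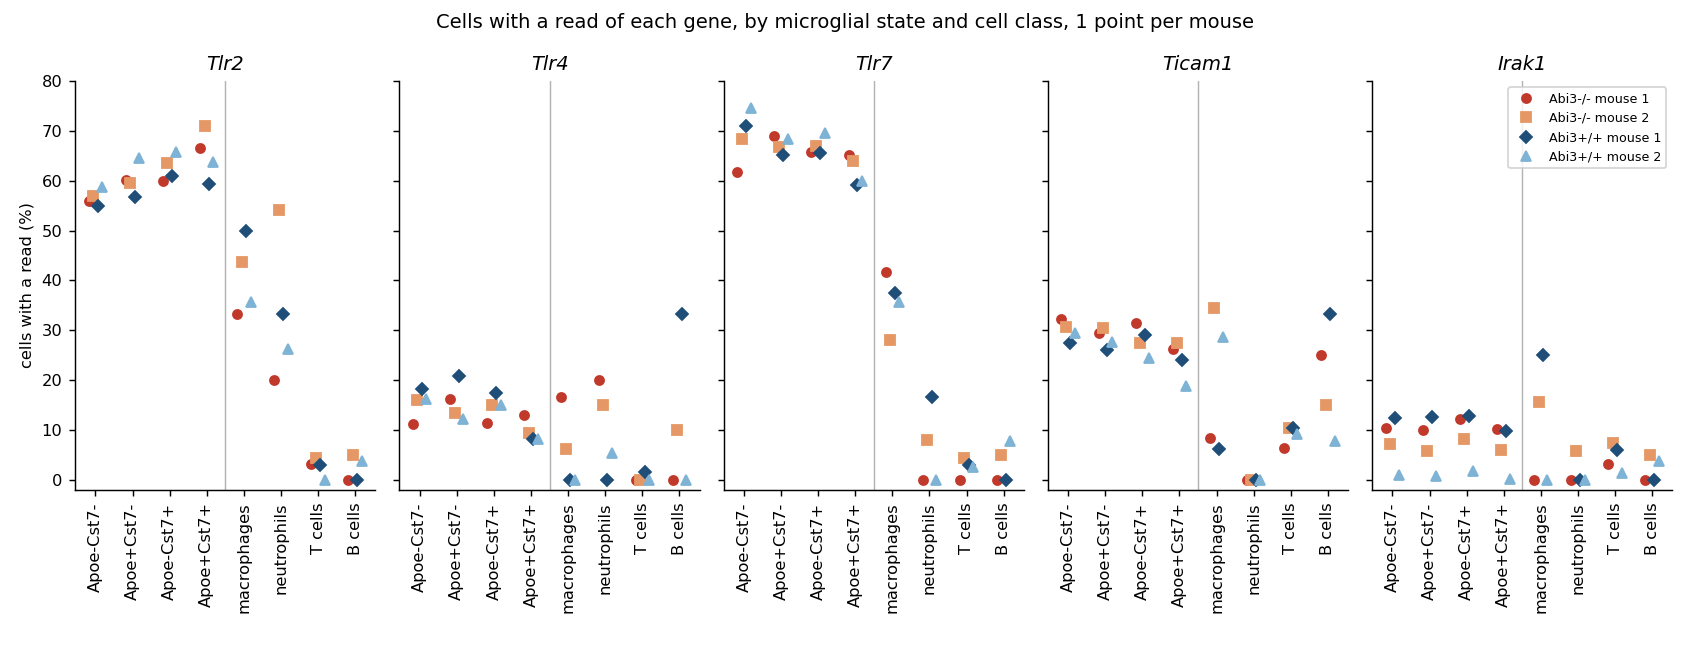
Share of cells with at least 1 read of each gene, with 1 point per mouse, in the 4 microglial states (left of the line) and the 4 other cell classes (right of it). Tlr2 and Tlr7 lie above 54% in all microglial states and at or below 7.69% in T and B cells, and Ticam1 is at 0 in the neutrophils of all 4 mice.

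None of the 5 genes passed the test between Abi3-/- and Abi3+/+ microglia. In all microglia, 329 genes were tested between the genotypes with edgeR, none passed the adjusted threshold (0%), 19 had an unadjusted p under 0.05, and DESeq2 called 10. Tlr2 was at 2826 and 3632 CPM (TMM-normalized) with Abi3 lost and at 2417 and 3012 with Abi3 intact, and the groups overlapped. The log2 fold change was 0.25 (SE 0.21, edgeR adjusted p = 0.91). Tlr7 was at 2435 and 2553 CPM against 2699 and 2885, with a log2 fold change of -0.16 (SE 0.13, edgeR adjusted p = 0.89). Tlr4 was at 289.1 and 280.6 CPM against 396 and 331, with a log2 fold change of -0.35 (SE 0.18, edgeR adjusted p = 0.72). For Tlr7 and Tlr4 both Abi3-/- values were below both Abi3+/+ values, and neither difference passed the threshold. How many panel genes lie apart in this way is not given here, so no genotype pattern is read from it.

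Ticam1 was at 693 and 727 CPM with Abi3 lost and at 705 and 686 with Abi3 intact, with a log2 fold change of 0.03 (SE 0.14, edgeR adjusted p = 0.98). Irak1 was at 24.5 and 18.8 CPM against 25.1 and 2.01, with a log2 fold change of 0.68 (SE 1.27, edgeR adjusted p = 0.95). Without Abi3+/+ mouse 2 the Irak1 value was -0.22, so its direction rests on that library. Scaling by library size moved the median of all genes from 0.01 to -0.18, and against that median Tlr2 stood at 0.23, Tlr4 at -0.36 and Tlr7 at -0.18.

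By the share of microglia with a read, the difference between genotype means (Abi3-/- minus Abi3+/+) was 3.24 percentage points for Tlr2, 2.51 for Ticam1, -1.93 for Tlr4 and -2.64 for Tlr7. In these 4 genes the genotypes did not overlap, and the two-sided exact permutation test gave p = 0.33 for each, the smallest that 2 mice against 2 allow. The share of all panel genes whose genotypes lie apart in this way is not given here. Nothing is therefore read from the number of members that do. For Irak1 the difference was 2.04 points with an exact p of 1. Leaving out each mouse in turn gave 0.850 to 5.62 points for Tlr2, 2.46 to 2.55 for Ticam1, -3.42 to -0.43 for Tlr4 and -4.07 to -1.20 for Tlr7, with the lowest size of Tlr2 and Tlr4 without Abi3+/+ mouse 1 and that of Tlr7 without Abi3+/+ mouse 2. The counting intervals of the Ticam1 shares (exact binomial 95%) overlapped between genotypes, from 27.2% to 31.1% in Abi3-/- mouse 1 and from 25.3% to 28.2% in Abi3+/+ mouse 1, and its level in CPM overlapped too.

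Whether the Apoe+Cst7+ and Apoe-Cst7- states differed by another amount in each genotype was tested as an interaction, and no gene of 313 passed the adjusted threshold in edgeR (0%), with 33 at an unadjusted p under 0.05 and 25 called by DESeq2. The edgeR adjusted p of the members lay between 0.71 (Tlr7) and 1 (Ticam1). By shares of positive cells, the Apoe+Cst7+ minus Apoe-Cst7- difference of Tlr2 was 10.5 and 14 percentage points with Abi3 lost and 4.39 and 4.93 with Abi3 intact. That of Tlr7 was 3.46 and -4.39 against -11.9 and -14.6, and that of Tlr4 was 1.81 and -6.65 against -10.2 and -8.16. In all 3 receptors the difference was more positive in both Abi3-/- mice than in either Abi3+/+ mouse, with an exact permutation p of 0.33 for each. The share of all panel genes apart in this way is not given here, so no trait of the receptors is read from it. In the edgeR interaction the median log2 value of all 313 genes was 0.08. The fractions of the states themselves differed between these libraries, since Apoe-Cst7- cells made up 22.1% and 37.4% of microglia with Abi3 lost and 56.0% in each mouse with Abi3 intact, and their part in these differences was not tested.

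**Figure D4:**
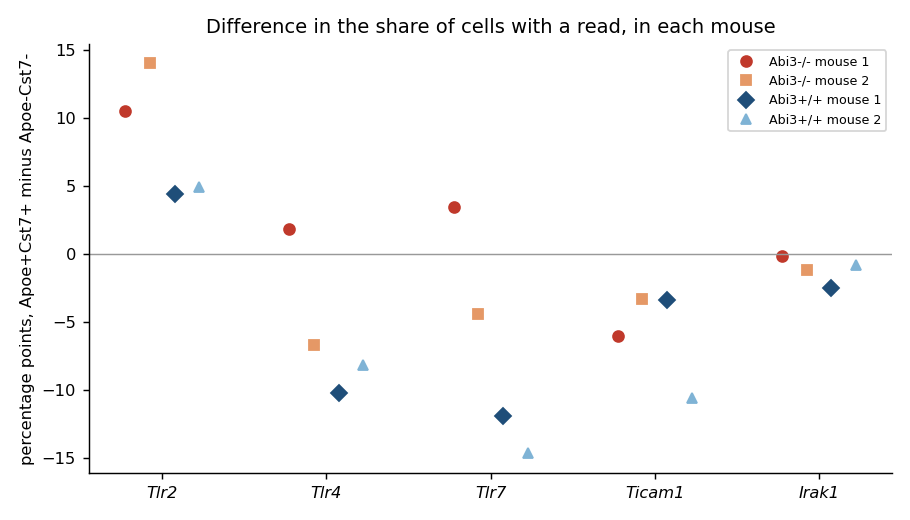
Apoe+Cst7+ minus Apoe-Cst7- microglia in their percentage of positive cells, in percentage points, with 1 point per mouse for each gene. For Tlr2, Tlr4 and Tlr7 the 2 Abi3-/- mice lie above the 2 Abi3+/+ mice, at 10.5 and 14 against 4.39 and 4.93 for Tlr2. The share of all panel genes apart in this way is not given.

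The panel held 37 other genes of the pathway, of which 33 could be tested between the states. In Apoe+Cst7+ microglia against Apoe-Cst7- microglia, 6 were higher, 14 were lower and 13 did not pass the threshold, beside 24.2% higher and 22.9% lower among all 297 genes. Their median log2 fold change was -0.27, and that of all genes was -0.04. Scaled by library size alone, 3 were higher and 20 lower, with medians of -0.84 and -0.60. Most genes of the whole panel called under that scaling were lower too, as given above. Genes of the list went in both directions under either scaling.

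Among the other receptors, Tlr3, the double-stranded RNA sensor that signals through TRIF, was lower with a log2 fold change of -0.75 (SE 0.13, edgeR adjusted p = 4.05e-04), as was Ticam1. Tlr1, the partner of TLR2, was at 0.06 (SE 0.11) and Tlr9, which senses CpG DNA, at -0.11 (SE 0.28), and neither passed. Tlr8 had a read in at most 0.046% of microglia in any mouse and was not tested. Of the 3 co-receptor genes, Ly86 (0.48, SE 0.07) and Cd14 (0.45, SE 0.07) were higher under TMM. Scaled by library size alone they were at -0.09 and -0.12, above the median of all genes at -0.60. Both were called lower by limma on mean log-normalized expression, at -0.082 and -0.30 on a natural-log scale (limma adjusted p = 0.020 and 0.0067). The Ly86 call was also lost with no mouse block (edgeR adjusted p = 0.063). Ly96, which encodes MD-2, was lower at -0.33 (SE 0.11, edgeR adjusted p = 0.025). The Ly96 call was lost without Abi3-/- mouse 2 (edgeR adjusted p = 0.0962), without Abi3+/+ mouse 1 (0.0910) and with no mouse block (0.0625).

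Of the 7 signal carriers, 4 were lower and none was higher under TMM, beside 22.9% lower among all genes. Scaled by library size alone all 7 were lower. That scaling put the median of all genes at -0.60, and most genes of the panel called under it were lower. Myd88, the adaptor of most receptors including TLR2, was at -0.68 (SE 0.09, edgeR adjusted p = 9.15e-05). Casp8 was at -0.89 (SE 0.10), Mapk8 at -0.66 (SE 0.19) and Birc3, an inhibitor of apoptosis, at -0.59 (SE 0.16). Without Abi3-/- mouse 2 the calls of Mapk8 and Birc3 were lost (edgeR adjusted p = 0.0599 and 0.0855), and that of Mapk8 also without Abi3+/+ mouse 1 (0.0539). Under TMM, Tlr2 was thus higher in the state in which its adaptor was lower. Scaled by library size alone, Tlr2 was at 0.12 and did not pass (edgeR adjusted p = 0.313). Of 5 transcription factor genes, Jun (-0.90, SE 0.09) and Nfkb1 (-0.27, SE 0.10) were lower, and none was higher, with Irf7, an interferon response factor, at 1.23 (SE 0.47, edgeR adjusted p = 0.0502). Nfkb1 lost its call in 5 of 16 alternatives, with DESeq2 (adjusted p = 0.118), with no mouse block (edgeR adjusted p = 0.0699) and without Abi3-/- mouse 2, Abi3+/+ mouse 1 or Abi3+/+ mouse 2 (edgeR adjusted p = 0.155, 0.131 and 0.0691). In microglia with no read of other class markers, and under DESeq2, 1 of the 5 was higher.

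The 15 tested targets of the pathway went both ways, with 4 higher, 6 lower and 5 not passing, beside 24.2% higher and 22.9% lower among all 297 genes. Scaled by library size alone, 3 targets were higher and 6 lower. Il1b rose by 1.69 (SE 0.38, edgeR adjusted p = 0.0030) and the chemokine gene Ccl3 by 1.14 (SE 0.17), whereas Ccl2 was at -1.59 (SE 0.35) and Il6 at -1.08 (SE 0.21). Il1b is also a neutrophil gene, higher in neutrophils than in microglia here by 7.64 (SE 1.91, edgeR adjusted p = 0.017). In the microglia with no read of any other class's markers its rise was 1.70. Such cells can still hold stray Il1b reads, and the part of stray neutrophil reads in the rise was not tested. With Cst7 alone, the chemokine gene Ccl4 rose by 0.65 (edgeR adjusted p = 0.0087). Between the genotypes, none of the 34 pathway genes tested passed the threshold. In neutrophils, 3 of 32 pathway genes tested were higher and 6 were lower. Among all 333 genes 9.91% were higher and 22.5% lower there, and the median was -3.04. Tlr1 and Tlr3 were among the lower ones, at -6.46 (SE 2.03) and -8.39 (SE 3.02, edgeR adjusted p = 0.047), beside the member Ticam1.

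**Figure D5:**
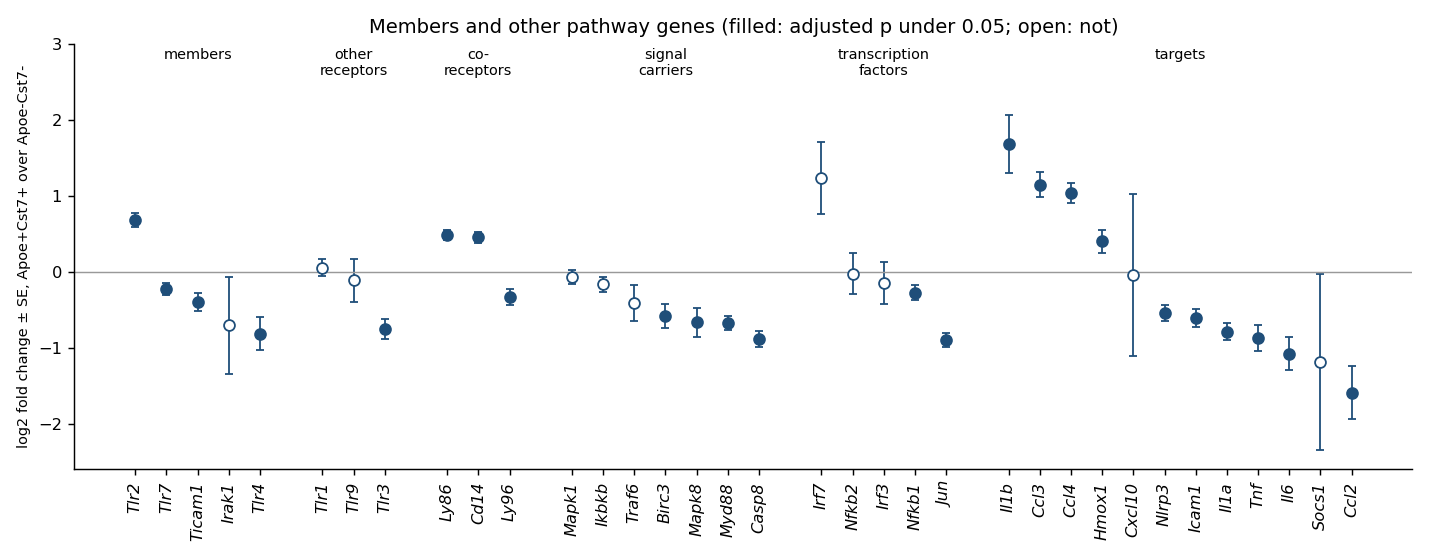
Log2 fold change with standard error between Apoe+Cst7+ and Apoe-Cst7- microglia for the 5 members and the tested genes of the pathway by role, where filled points passed an adjusted p of 0.05. Cxcl2, Il12a and Il1rn, whose standard errors were above 2, are not drawn, and the signal carriers lie below 0.

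The genes whose pattern was most like that of each member were sought among 329 panel genes, by Pearson correlation of log2 CPM over 32 profiles (4 states and 4 other classes in 4 mice) with the marker genes left out. Tlr2 was nearest to Itgam, which encodes CD11b (r = 0.90), followed by Havcr2 (0.85) and Cd33 (0.84). Tlr7 was nearest to Fosb (0.86), Tlr3 (0.84) and Ly86 (0.83). Ticam1 was nearest to Hprt (0.89), Rpn2 (0.87) and Tlr1 (0.80). Tlr4 and Irak1 had no gene as close, with Il6 (0.64) and Junb (0.56) as the nearest. Over the 16 profiles of microglial states alone each member had another gene as its nearest. These were Slc25a37 for Tlr4 (0.96) and Tlr7 (0.97), Maf for Irak1 (0.94), Il7r for Ticam1 (0.94) and Cd9 for Tlr2 (0.72). Maf and Junb were among the 3 nearest genes of Irak1 in both sets of profiles. The profiles share libraries and differ widely in cell number, so these correlations describe the panel and carry no test.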

How the data were processed

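Brain cells of 4 mice were profiled with a targeted panel, 1 library per mouse. The authors ran the BD Rhapsody pipeline and deposited error-corrected read counts (DBEC) for each cell and gene. Such reads are not independent molecules, so depth limits shares and intervals cover counting error only. Doublets were limited only by the upper read limit. Members, gene lists, gates and tests were chosen with earlier results of these data known. Classes needed 3 or more markers with a read. Reads were summed per mouse and state or class and tested with edgeR 4.0.16 (quasi-likelihood, default low-count filter, TMM, Benjamini-Hochberg, threshold 0.05, mouse as a block within mice) in R 4.3.3. Standard errors came from the fold change and the F value. Shares were compared by exact permutation. The labels give no batch. The test was also tested on simulated data. DESeq2 1.42.0, limma 3.58.1, other gates, filters, scalings and each mouse left out were alternatives, and 3 were added after seeing the data. Named genes were the members, up to 4 called genes per pathway group with the largest changes, and the 3 nearest genes of each member. Tlr1, Tlr8, Tlr9, Irf7 and Ctsd were named after their values were seen.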

Additional observations from a re-analysis of the deposited data

Results flagged for a closer look

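In the cells that were left out of the comparisons the 5 genes also had reads. Of 5674 cells with fewer than 40 genes, 4.69% had a read of Tlr2, 0.335% of Tlr4, 1.39% of Tlr7, 4.00% of Ticam1 and 2.38% of Irak1. Of 1678 cells above the upper limit on reads, 84.9% had a read of Tlr2, 15.0% of Tlr4, 81.5% of Tlr7, 40.6% of Ticam1 and 12.2% of Irak1. These cells entered the comparisons only in the alternative with no cell filter, and whether their reads are stray reads was not tested.

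The change of Tlr2 between Apoe-Cst7- and Apoe+Cst7+ microglia had opposite signs in the genotypes when reads were scaled by library size alone. That scaling put the median of all genes over the 4 mice at -0.60, so no fall of Tlr2 is read from a negative sign. The log2 ratio of CPM was 0.24 and 0.28 with Abi3 lost, and -0.021 and -0.030 with Abi3 intact. An exact permutation test over the 4 mice gave p = 0.33, the smallest it can give. The interaction under TMM was 0.10 (SE 0.18, edgeR adjusted p = 0.96), and there Tlr2 was higher in Apoe+Cst7+ cells in all 4 mice.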

How the results depend on the processing

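Of 1047 values recomputed under an alternative, 929 were kept. For a test this means the same direction and side of the threshold, and for a count of genes a value within 1.5 times. For a genotype difference in shares it means the same sign alone, whatever the size. Between Apoe+Cst7+ and Apoe-Cst7- microglia, Tlr2 kept its call in 14 of 16 alternatives and lost it under library size only (0.12, adjusted p = 0.313) and with Apoe and Cst7 also left out of the totals (0.16). Tlr4 lost its call without Abi3-/- mouse 2. Tlr7 lost it under DESeq2 (-0.13), with no cell filter (-0.14) and with no mouse block (-0.23). Irak1 passed only under limma on mean log-normalized expression (-0.033 on a natural-log scale, adjusted p = 0.0030). Leaving out each mouse gave -1.06 to -0.74 for Tlr4, -0.29 to -0.18 for Tlr7 and -0.54 to -0.33 for Ticam1.

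With Apoe alone, 17 calls became 49 with positive from 10 reads, 43 under DESeq2, 36 with 4 markers, 41 with no cell filter, 1 with no mouse block and 1 to 14 without a mouse. With Cst7 alone, 23 became 41 with Apoe and Cst7 out of the totals, 62 from 10 reads, 63 under DESeq2, 50 with 4 markers, 43 by library size, 11 under limma, 60 without other markers, 68 with no cell filter, 6 with no mouse block and 8 to 32 without a mouse. Macrophage calls went from 43 to 90 under DESeq2, 116 under limma, 67 in profiles of 10 or more cells and 10 to 13 without a mouse. Neutrophil calls went from 108 to 49 with 2 markers, 47 in profiles of 10 or more cells and 22 to 90 without a mouse, the lowest without Abi3+/+ mouse 2. B cell calls were 81 to 111 without a mouse. DESeq2 called 10 genes between genotypes and 25 for the interaction, where edgeR called 0.

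Signs changed for Ticam1 between genotypes under library size (-0.16), DESeq2 (-0.0052) and leaving out a mouse (-0.0085 to 0.050), and for Irak1 without a mouse (-0.22 to 3.43, shares -3.51 to 7.60 points). The Ticam1 interaction was 0.15 under library size, 0.057 under limma, 0.062 thinned, 0.037 without other markers, 0.13 with Apoe and Cst7 out of the totals and -0.35 to 0.31 without a mouse. Cd14 and Ly86 turned to -0.12 and -0.089 under library size, -0.30 and -0.082 under limma and -0.071 and -0.044 with Apoe and Cst7 out of the totals. Both were called lower by limma (limma adjusted p = 0.0067 and 0.020), and the limma values given here are on a natural-log scale. Irak1 with Cst7 alone was -0.067 under library size, -0.0033 under limma, -0.37 thinned, -0.033 from 10 reads, -0.18 with no mouse block, -0.057 with Apoe and Cst7 out of the totals and -0.32 to 0.22 without a mouse. Irak1 in macrophages was 0.0076 under limma, and Tlr4 in neutrophils was 0.35 in profiles of 10 or more cells and -1.31 to 0.27 without a mouse. The cause of these changes was not tested.

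Replicate numbers 1 and 2 in the labels do not tie mice together. Deviations of same-numbered mice correlated at 0.15 over 329 genes, and with the replicate block 0 genes passed between the genotypes. Few cells limit neutrophils and B cells, with as few as 5 and 3 in a mouse, and Irak1 had 25 positive microglia in Abi3+/+ mouse 2. The microglia of that mouse had a median of 22758 reads, against 19791 in Abi3+/+ mouse 1. The cause of the low Irak1 share was not tested.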
